A study of Mus musculus with 6 samples.

Results

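Basement membrane laminins and collagens are represented here by 67 ATAC-seq peaks at 8 mouse genes, out of 90823 consensus peaks in the whole series. The genes are the type IV collagen genes Col4a1 and Col4a2, the type XVIII collagen gene Col18a1, and the laminin chain genes Lama3, Lama5, Lamb1, Lamb3 and Lamc1. A peak was counted to a gene when its centre lay within 50 kb of an annotated end of the gene and nearer to it than to an end of any other protein-coding gene. This gave 7 peaks to Col4a1, 5 to Col4a2, 13 to Col18a1, 2 to Lama3, 13 to Lama5, 7 to Lamb1, 9 to Lamb3 and 11 to Lamc1. This rule uses gene names and positions. The 67 peaks spanned 206 to 2228 bp, with a median of 500 bp.

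ATAC-seq marks open chromatin by letting a transposase insert sequencing adapters into accessible DNA, so a higher count in a peak means that the stretch was cut more often. The cells were epithelial cells sorted from mouse intestinal organoids, which are crypt-derived epithelial cultures grown in Matrigel. That gel is itself a basement membrane extract, and all 3 groups shared it. Organoids received vehicle, 25 µM arachidonic acid (AA), the fatty acid from which prostaglandins are made, or 50 nM prostaglandin E2 (PGE2), each for 3 days and each with 2 libraries. The labels name the prostaglandin in more than one way, once as a dimethyl analogue, so it is called PGE2 here as on the samples. They do not say whether the paired libraries came from separate cultures, so every p-value measures the spread between these libraries only, which may be technical.

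The basement membrane is the thin sheet of matrix on which an epithelium rests. Laminins are heterotrimers of an alpha, a beta and a gamma chain that polymerise on the basal cell surface and bind integrins and dystroglycan. Type IV collagen trimers form a second, covalently crosslinked network, and proteoglycans such as type XVIII collagen are held in it. In the intestine the epithelium and the mesenchyme below it both contribute chains to this sheet.

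Totals were 12374232 to 14236985 counts per library, of which the 67 peaks took 0.051% to 0.061%. Of 11 epithelial marker genes, 10 had an open peak within 1 kb of a gene end (all but Krt20), with the strongest such peak at 42.0 to 124 CPM, which are counts scaled to a common library total. Of 10 marker genes of fibroblasts and other stroma, including Col1a1, Col3a1, Dcn and Pdgfra, 0 had one. Summed over the peaks of that stromal list, CPM ranged from 155 to 156 with vehicle, 147 to 151 with AA and 144 to 147 with PGE2. One endothelial marker of 8 (Kdr, 3.32 CPM) and 3 immune markers of 8 (Itgam, 16.7 CPM, Cd68, 23.3, and Spi1, 14.0) had a gene-end peak. Peaks at gene ends held a larger share of all counts with PGE2, at 34.33% and 35.8%, than with vehicle (31.94% and 31.44%) or AA (32.34% and 32.86%). The calls of member peaks were therefore also made with a scaling of their own for the gene-end peaks, an alternative added after seeing the data.

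Sequence was at hand for promoter windows only, so promoter stretches are shown here. Of the peaks called higher, 4 of 24 with AA and 3 of 22 with PGE2 lay within 1 kb of a gene end. Sequences of peaks away from promoters were not read. RefSeq promoter windows of GRCm38.p6 (250 bases before to 50 after a start) matched 6 of the 8 genes, in 8 windows. The first 3 sequences are the 250 bases before the start at Lama5 (chr2:180225860-180226109, minus strand), Col18a1 (chr10:77166531-77166780, minus strand) and Lamb3 (chr1:193301744-193301993, plus strand), shown because the peak over the first rose more with PGE2 than with AA, that over the second rose with both, and that over the third changed with neither beyond the test's threshold. They run 5′ to 3′ on the gene's strand. Capitals mark GC boxes (GGGCGG or, on the other strand, CCGCCC) and CCAAT boxes (CCAAT or ATTGG).
Lama5: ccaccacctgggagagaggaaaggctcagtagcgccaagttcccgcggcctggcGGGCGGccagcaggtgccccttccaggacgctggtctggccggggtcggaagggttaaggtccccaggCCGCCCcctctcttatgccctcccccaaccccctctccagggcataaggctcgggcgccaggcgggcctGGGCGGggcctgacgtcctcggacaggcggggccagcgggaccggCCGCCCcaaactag
Col18a1: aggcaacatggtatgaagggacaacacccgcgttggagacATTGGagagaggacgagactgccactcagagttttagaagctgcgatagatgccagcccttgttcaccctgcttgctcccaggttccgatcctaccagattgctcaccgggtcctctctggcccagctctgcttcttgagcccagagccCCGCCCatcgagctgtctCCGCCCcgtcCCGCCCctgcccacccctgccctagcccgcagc
Lamb3: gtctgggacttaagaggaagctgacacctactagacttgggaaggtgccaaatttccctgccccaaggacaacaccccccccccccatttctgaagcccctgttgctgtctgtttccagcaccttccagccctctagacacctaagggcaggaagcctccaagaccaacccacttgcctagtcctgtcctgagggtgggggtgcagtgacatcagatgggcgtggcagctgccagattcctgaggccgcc

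Col4a1 and Col4a2 are transcribed away from each other from a shared promoter, and their RefSeq windows overlap. Short stretches of 30 bases from it are shown, because the peak over it covers the starts of both genes. They lie at chr8:11312761-11312790 and chr8:11312800-11312829 on the Col4a2 strand and at chr8:11312954-11312983 on the Col4a1 strand.
Col4a2 CCAAT box: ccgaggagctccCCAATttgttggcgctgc
Col4a2 GC box: tcggcagtgcgcGGGCGGcgtctccaaggg
Col4a1 CCAAT box on the other strand: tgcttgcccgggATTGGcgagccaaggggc

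The member windows were GC-rich, at 59.3% to 74.0% GC against a median of 52.7% over 32851 windows, and held 2 to 37 CpG against a median of 7. A GC box on either strand was found in 5 of the 8 windows (Col4a1, Col4a2, Col18a1, Lama5 and Lamb1), and in 35.7% of all windows. CCAAT was found in 4 of 8 (Col4a1, Col4a2, Col18a1 and Lamb1), and in 37.4% of all. Both of these motifs were added after the windows had been seen. Of 6 motifs listed earlier and searched on both strands, TEAD's GGAATG was in 2 of the 8 windows, a second start at Col18a1 and one at Lamb3, and in 14.7% of all. Of the rest, the AP-1 letters TGANTCA were in 7.81% of all windows, CRE's TGACGTCA in 1.79%, TCF/LEF's CTTTGA in 16.0%, HNF4's CAAAGTCCA in 0.475% and TGATAA, for which the GATA factors are known, in 9.05%, and each was in 0 of the 8. These are letter matches within 300 bases and say nothing of binding.

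With AA, 24 of the 67 peaks were higher than with vehicle and 8 were lower, at an adjusted p under 0.05 (edgeR's quasi-likelihood test, Benjamini-Hochberg over all 89347 tested peaks). Those are 35.8% and 11.9% of the member peaks, beside 16.7% and 13.8% of all tested peaks. With PGE2, 22 were higher (32.8%) and 5 lower (7.5%), beside 14.3% and 10.6% of all. In either direction 30.5% of all tested peaks were called with AA and 24.9% with PGE2. Median changes over the members were 0.104 on the log2 scale with AA and 0.191 with PGE2, beside -0.016 and -0.002 over all peaks. All 67 peaks passed the filter on low counts, but 6 of them, 5 at the Col4a1 and Col4a2 pair and 1 at Lama5, passed only through the treated libraries and so were bound to be low with vehicle. Over the other 61, AA had 20 peaks higher and 8 lower, and PGE2 18 and 5. Separate scaling of the gene-end peaks gave 23 higher and 8 lower of all 67 with AA, and 25 higher and 5 lower with PGE2. Of all 89347 tested peaks, it called 14718 higher and 12845 lower with AA, and 12120 and 10703 with PGE2. The test of DESeq2, used as an alternative, made fewer calls, 14 higher and 1 lower with AA and 10 higher and 2 lower with PGE2. It also made fewer over all 90823 peaks, 6040 higher and 2951 lower with AA and 5284 and 2077 with PGE2. In such bulk libraries a change in the share of cells of one type and a change within the cells cannot be told apart.

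The treatments share the vehicle libraries, so their changes are set side by side. Changes called higher with AA ran from 0.21 to 1.8 on the log2 scale, and those called higher with PGE2 from 0.31 to 2.68. Of the 24 peaks higher with AA, 11 lay outside the gene they were counted to and 4 lay within 1 kb of a gene end.

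**Figure D1:**
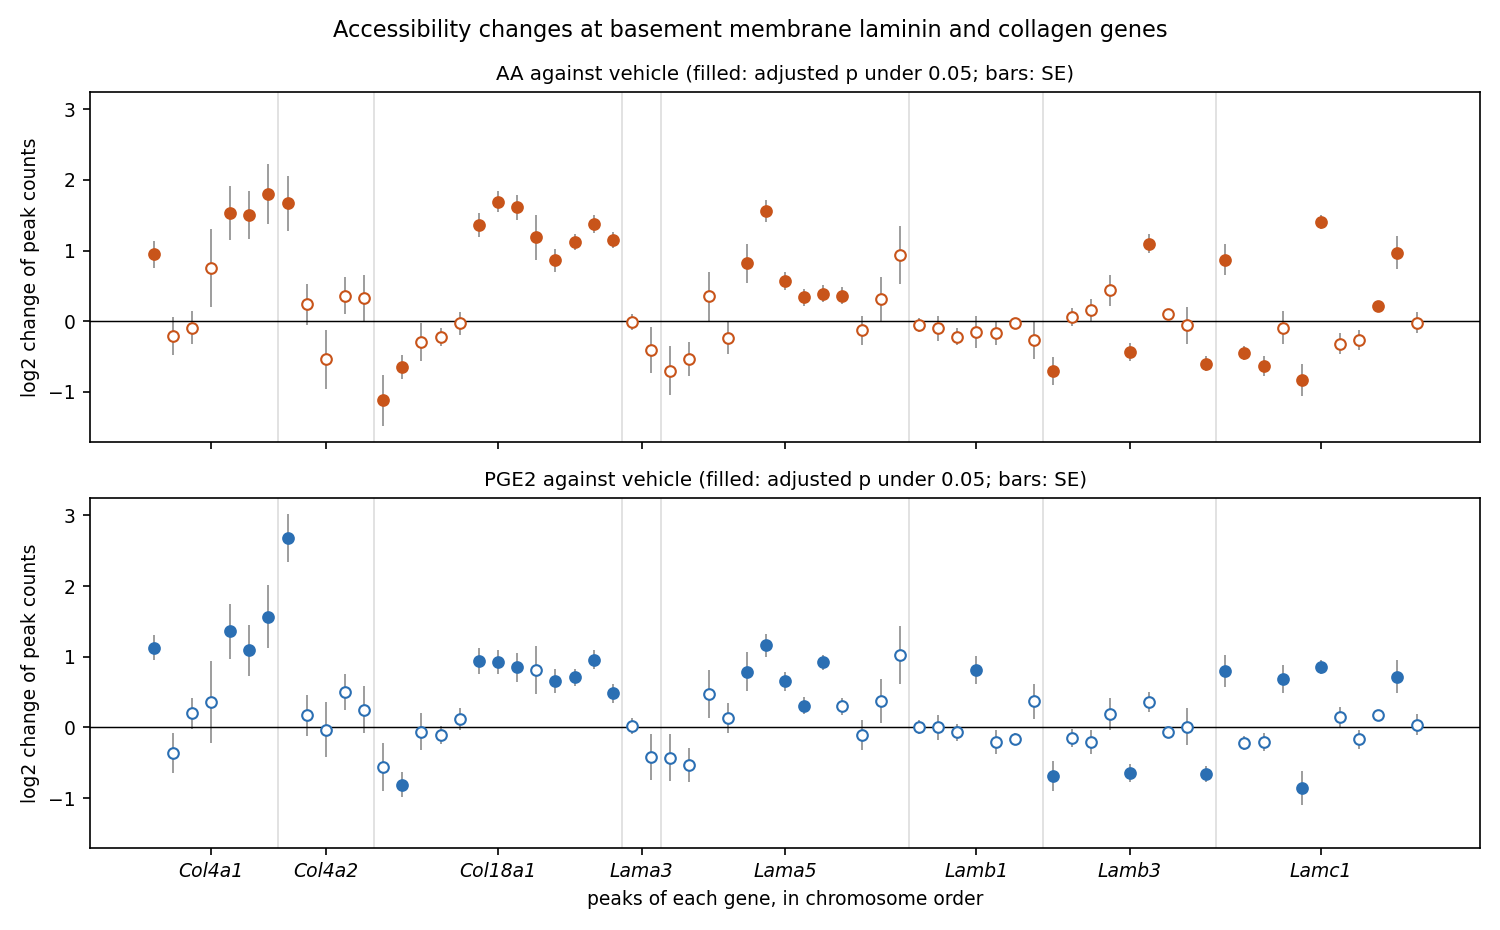
Log2 change of each of the 67 peaks with AA (upper panel) and PGE2 (lower panel) against vehicle, by gene and in chromosome order, with bars of 1 SE and filled points for an adjusted p under 0.05. Filled points above the line number 24 with AA and 22 with PGE2, 8 and 7 of them at Col18a1, while Lama3 has no filled point in either panel.

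Type IV collagen is the network-forming collagen of every basement membrane, and Col4a1 and Col4a2 encode the chains of its most widespread trimer. The peak over their shared promoter (chr8:11312114-11313036) held few counts with vehicle and more with both agents, most with PGE2. It is 1 of the 6 that passed the filter only through the treated libraries, so its vehicle signal was bound to be low. It held 10 and 5 counts with vehicle, 28 and 21 after AA, and 51 and 46 after PGE2. The 3 groups did not overlap. In CPM this was 0.574 ± 0.272, 1.84 ± 0.182 and 3.72 ± 0.242 (SD, n = 2). The rise was 1.67 on the log2 scale with AA (SE 0.39, edgeR adjusted p = 8.9e-04) and 2.68 with PGE2 (SE 0.34, edgeR adjusted p = 4.88e-08). AA was lower than PGE2 by a direct test (log2 -1.0, SE 0.26, edgeR adjusted p = 0.00784). That last difference did not pass without AA replicate 1 (adjusted p = 0.0583) or AA replicate 2 (0.0841). Peaks within 1 kb of a gene end were called higher with PGE2 in 32.1% of all cases and with AA in 14.6%. Scaled separately from the peaks elsewhere, the changes were 1.62 and 2.51. The peak's centre lies 230 bp from the end of Col4a2 and 314 bp from that of Col4a1, so it is counted to Col4a2 although it covers both starts.

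Beyond that promoter, 4 of the 7 Col4a1 peaks were higher with AA and 4 with PGE2. The peak furthest from the promoter lies 42086 bp beyond the other end of Col4a1 (chr8:11155904-11156770) and had 3.14 and 2.98 CPM with vehicle, 6.12 and 5.71 after AA, and 7.10 and 6.33 after PGE2. Its changes were 0.95 (SE 0.19, edgeR adjusted p = 1.02e-04) and 1.13 (SE 0.18, edgeR adjusted p = 6.68e-06). The other 3 lie 10341, 27722 and 33599 bp from the Col4a1 end, inside the body of Col4a2, and were counted to Col4a1 because the genes overlap by 84 bp and its end was the nearer. They had vehicle means of 0.535 to 0.879 CPM and rose by 1.51 to 1.80 with AA and by 1.09 to 1.57 with PGE2 on the log2 scale. They are among the peaks that passed the filter only through treated libraries. DESeq2 called 3 of the 7 Col4a1 peaks with AA and 1 with PGE2, where it gave no adjusted p for 4. The gene-end peak of Col4a1 itself (chr8:11313458-11313685) was faint, at 0.535, 0.906 and 0.690 CPM with vehicle, AA and PGE2, and passed no test. It was joined in that by 2 other Col4a1 peaks and 4 of the 5 of Col4a2. One more strong rise lay inside Col4a2, 59420 bp from its nearer end and therefore outside the 67: chr8:11371995-11372622 had 1.22 CPM with vehicle, 6.36 with AA and 4.87 with PGE2 (log2 2.36 and 1.99, SE 0.24 and 0.26).

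**Figure D2:**
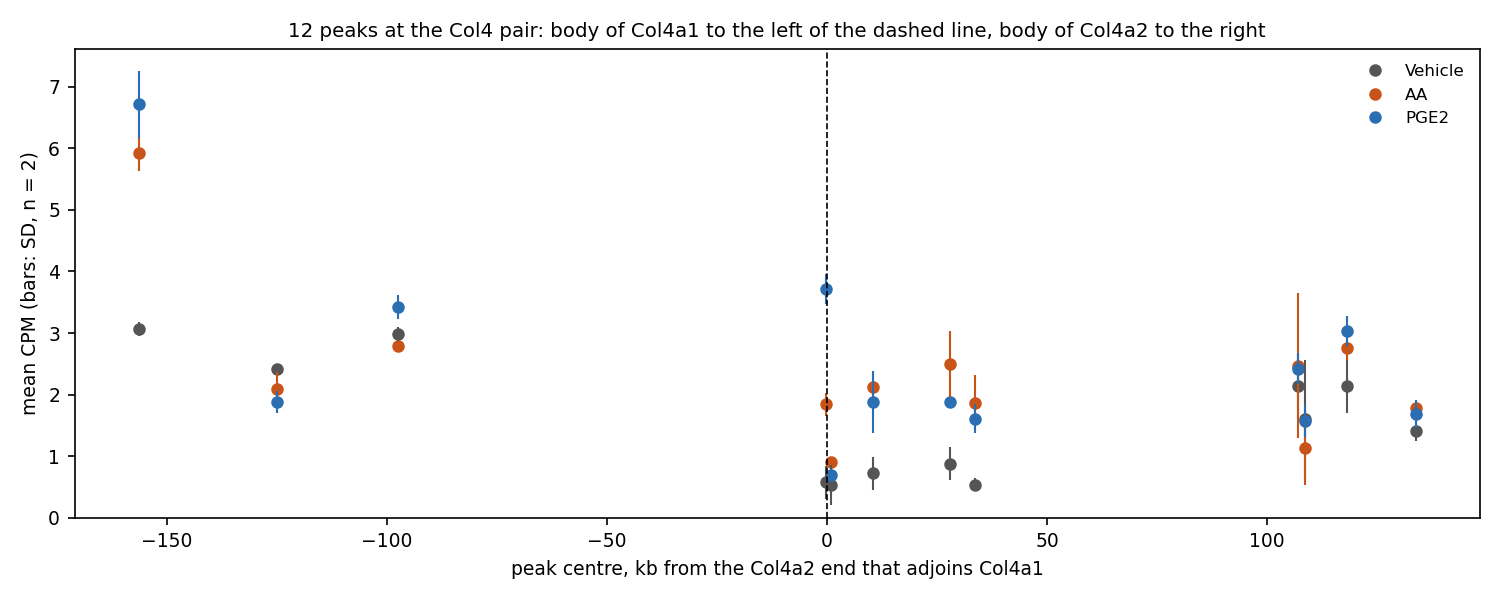
Mean CPM (bars: SD, n = 2) of the 12 peaks counted to Col4a1 or Col4a2 against distance in kb from the end of Col4a2 that adjoins Col4a1. The promoter peak at the dashed line stands at 0.574 CPM with vehicle, 1.84 with AA and 3.72 with PGE2. Among other places, the treated points also lie above vehicle at the far left and at the peaks 10341, 27722 and 33599 bp from the Col4a1 end.

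Col18a1 encodes a collagen that carries heparan sulfate and whose end fragment is endostatin. It had the most peaks called higher of the 8 genes, 8 of its 13 with AA and 7 with PGE2. The 8 fall in 3 places: the promoter, a run 13925 to 24064 bp into the gene, and a group 37312 to 44832 bp upstream of it. The promoter peak (chr10:77165549-77166732) had 4.90 and 4.2 CPM with vehicle, 8.30 and 8.16 after AA, and 6.79 and 7.48 after PGE2. It rose by 0.86 with AA (SE 0.16, edgeR adjusted p = 4.16e-05) and by 0.65 with PGE2 (SE 0.17, edgeR adjusted p = 0.00257), the latter not passing without vehicle replicate 2 (0.063) or by DESeq2 (0.103).

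Inside the gene, the peak at chr10:77146893-77147521 rose the most with AA. It had 3.29 and 4.12 CPM with vehicle, 11.9 and 12.2 after AA, and 7.25 and 6.87 after PGE2, so PGE2 stood between the others in both libraries. The change was 1.69 with AA (SE 0.15, edgeR adjusted p = 7.72e-12) and 0.93 with PGE2 (SE 0.17, edgeR adjusted p = 5.61e-05). Its neighbours at chr10:77150912-77151876 and chr10:77142237-77142695 rose by 1.61 and 1.36 with AA and by 0.85 and 0.94 with PGE2. The fourth of the run, with the fewest counts (chr10:77152478-77152732), rose with AA by 1.19 and had a log2 change of 0.81 with PGE2 that did not pass (adjusted p = 0.0751).

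Upstream, the peak at chr10:77206607-77207213 had 6.51 and 7.63 CPM with vehicle, 17.0 and 19.8 after AA, and 13 and 14.5 after PGE2. It rose by 1.38 with AA (SE 0.13, edgeR adjusted p = 9.12e-12) and by 0.96 with PGE2 (SE 0.13, edgeR adjusted p = 3.47e-07). The peaks at its sides, chr10:77203316-77204369 and chr10:77211008-77211716, rose by 1.12 and 1.15 with AA and by 0.71 and 0.48 with PGE2. For the last of these the PGE2 rise did not pass without vehicle replicate 1 (adjusted p = 0.14), without PGE2 replicate 1 (0.052) or by DESeq2 (0.122). That peak overlaps a RefSeq promoter window that is not one of Col18a1's. It lies 44832 bp from Col18a1 and 47719 bp from Pofut2, so its assignment to Col18a1 was a close one.

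At the other end of Col18a1 the change ran the other way. The peak at chr10:77056964-77057637, 5122 bp from that end, had 6.2 and 6.33 CPM with vehicle, 4.08 and 3.92 after AA, and 3.59 and 3.55 after PGE2. It fell by 0.65 with AA and by 0.81 with PGE2 on the log2 scale (SE 0.17 and 0.18, edgeR adjusted p = 0.00363 and 5.75e-04), and passed with neither by DESeq2 (0.175 and 0.0613). A peak 1468 bp from the end fell with AA by edgeR (log2 -1.12, SE 0.36) but not by DESeq2. With PGE2 it was at -0.56 and did not pass. Both peaks lie inside Col18a1, but Slc19a1 is little further away, at 6868 and 3214 bp in the same order, so these assignments were close too. No consensus peak lay over the second RefSeq start of Col18a1, whose nearest peak centre was 1868 bp away.

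Lama5 encodes the alpha chain of the main laminins of adult epithelia, and 6 of its 13 peaks were higher with AA and 5 with PGE2. Its promoter peak (chr2:180225016-180226183) had 12.7 and 11.7 CPM with vehicle, 15.3 and 17.0 after AA, and 20.2 and 26 after PGE2. The order vehicle, AA, PGE2 held for every library. The rise was 0.39 with AA (SE 0.12, edgeR adjusted p = 0.0103) and 0.92 with PGE2 (SE 0.11, edgeR adjusted p = 6.4e-08). AA was below PGE2 by 0.52 in the direct test (log2 -0.52, SE 0.11, edgeR adjusted p = 0.0012), which did not pass without AA replicate 1 (0.0734), without PGE2 replicate 2 (0.0716) or by DESeq2 (0.117). The AA rise itself did not pass without vehicle replicate 2 (0.124), without AA replicate 2 (0.126) or by DESeq2 (0.165). Scaled separately from the peaks elsewhere, the changes were 0.34 and 0.74.

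An internal Lama5 peak 9708 bp from the gene end at the promoter (chr2:180215923-180216468) had the reverse order of the agents. It had 4.06 and 3.74 CPM with vehicle, 11.5 and 11.5 after AA, and 8.85 and 8.56 after PGE2. Both rises were large, 1.56 (SE 0.15, edgeR adjusted p = 4.12e-11) and 1.16 (SE 0.16, edgeR adjusted p = 3.44e-07). AA exceeded PGE2 by 0.40 (SE 0.13, adjusted p = 0.0352), a call that was lost on leaving out any 1 of the AA or PGE2 libraries (0.0664 to 0.152) and by DESeq2 (0.391). The peaks between these (chr2:180220190-180220708 and chr2:180222068-180222738) rose by 0.57 and 0.34 with AA and by 0.65 and 0.31 with PGE2. The last of these rises lay at the threshold (edgeR adjusted p = 0.0491). With AA, DESeq2 called 1 of the 13 Lama5 peaks, chr2:180215923-180216468, and so neither of the peaks between. With PGE2 it called 3 of the 13.

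Lama3 encodes the alpha chain that pairs with the Lamb3 product in the laminin of hemidesmosomes, the junctions that anchor epithelia to the basement membrane. Neither of its 2 peaks passed the test with AA or PGE2, and 0 had an unadjusted p under 0.05 by edgeR. The gene-end peak (chr18:12333401-12335131) had 15.8 and 13.3 CPM with vehicle, 13.2 and 15.8 after AA, and 15.2 and 14.4 after PGE2. The groups overlapped fully. DESeq2 called 0 of the 2 as well. Lama3 is a long gene, however, and 6 peaks inside it lie more than 50 kb from either end. One of those (chr18:12503685-12504592) had 12.9 CPM with vehicle, 21.1 with AA and 16.4 with PGE2, a rise of 0.71 with AA (SE 0.11, edgeR adjusted p = 1.66e-06) and 0.35 with PGE2 (SE 0.11, edgeR adjusted p = 0.0208).

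Lamb1 and Lamb3 encode beta chains, the former of the widespread epithelial laminins and the latter of the hemidesmosomal one. None of the 7 Lamb1 peaks passed the test with AA, 0 had an unadjusted p under 0.05 by edgeR, and DESeq2 called 0. The strongest of them (chr12:31294025-31295208) had 33.2 and 31.2 CPM with vehicle, 32.7 and 30.5 after AA, and 30 and 27.7 after PGE2. One Lamb1 peak was higher with PGE2: chr12:31280930-31281469 had 3.14 and 3.05 CPM with vehicle, 2.89 and 2.69 after AA, and 4.65 and 6.25 after PGE2. Its PGE2 rise of 0.81 (SE 0.20, edgeR adjusted p = 0.00182) did not hold without PGE2 replicate 2 (0.0887) or by DESeq2 (0.106). No consensus peak lay over the Lamb1 promoter window, and the nearest peak centre was 8710 bp from that start.

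Lamb3 moved in both directions. Its most open peak covers both RefSeq promoter windows (chr1:193300973-193302428) and had 54.1 and 53.5 CPM with vehicle, 57.0 and 58.7 after AA, and 52.2 and 50.0 after PGE2. Neither change passed the test (log2 0.10 and -0.07, SE 0.06). A peak next to it (chr1:193298251-193298574) had 7.04 and 6.56 CPM with vehicle, 13.7 and 15.6 after AA, and 9 and 8.41 after PGE2. That peak rose with AA by 1.10 (SE 0.13, edgeR adjusted p = 5.1e-09) and had a log2 change of 0.36 with PGE2 that did not pass (adjusted p = 0.063) but did with gene-end peaks scaled separately (0.38, adjusted p = 0.0435).

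Falls at Lamb3 passed the test with each agent. The internal peak chr1:193326675-193327589 had 18.1 and 18.9 CPM with vehicle, 11.2 and 13.4 after AA, and 11.8 and 11.7 after PGE2. It fell by 0.60 (SE 0.11, edgeR adjusted p = 3.59e-05) and by 0.66 (SE 0.11, edgeR adjusted p = 1.36e-05). Upstream peaks at chr1:193289909-193290296 and chr1:193284245-193284669 fell by 0.44 and 0.70 with AA and by 0.65 and 0.69 with PGE2. The second of these was a close assignment, 9896 bp from Lamb3 and 11269 bp from G0s2. So was the internal peak, 16746 bp from an end of Lamb3 and 19214 bp from Camk1g. With AA, DESeq2 called 2 of the 9 Lamb3 peaks, the rise next to the promoter and the internal fall, and so neither upstream fall. With PGE2 it also called 2 of the 9.

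Lamc1 encodes the gamma chain shared by most laminins. Its most open peak (chr1:153331939-153334166, 266 bp from a gene end) had 54.3 and 56.6 CPM with vehicle, 59.2 and 69.6 after AA, and 61.9 and 63.0 after PGE2. The treated libraries all lay above vehicle, by small amounts: 0.21 with AA (SE 0.07, edgeR adjusted p = 0.0111) and a log2 change of 0.17 with PGE2 (SE 0.07) that did not pass (adjusted p = 0.0502). The AA call depended on the libraries and the scaling: it did not pass without AA replicate 2 (log2 0.09, adjusted p = 0.411), without vehicle replicate 1 (0.128), by DESeq2 (0.239) or with gene-end peaks scaled separately (0.0562). The PGE2 change lay at the threshold: it passed with no filter (0.0496), with a replicate block (0.0387), with only the groups compared (0.0472) and without AA replicate 1 (0.0413), AA replicate 2 (0.0395) or PGE2 replicate 1 (0.0418), while with gene-end peaks scaled separately it was 0.00 (adjusted p = 0.974).

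The clearest change among all 67 peaks by p was inside Lamc1, 31792 bp from that end (chr1:153300384-153301605). It had 11.6 and 13.1 CPM with vehicle, 33.0 and 32.3 after AA, and 21.6 and 22.9 after PGE2. The 3 groups were well apart. AA raised it 2.64-fold (log2 1.40, SE 0.10, edgeR adjusted p = 6.09e-15) and PGE2 1.80-fold (log2 0.85, SE 0.10, edgeR adjusted p = 2.2e-08). Peaks at chr1:153224367-153224779 and chr1:153351067-153351443 also rose with both, by 0.87 and 0.97 with AA and by 0.80 and 0.72 with PGE2. With each agent DESeq2 called 1 of the 11 Lamc1 peaks, the clearest one above, and so neither of these.

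Elsewhere in Lamc1 some peaks became less open. With AA, chr1:153251375-153253057 fell by 0.45, chr1:153258480-153259522 by 0.63 and chr1:153293859-153294436 by 0.83, each beyond the threshold by edgeR. DESeq2 called none of these falls with AA (adjusted p = 0.0764 for the second). Only the last of these passed with PGE2, where it fell by 0.86 (SE 0.24). Its call with PGE2 did not hold without PGE2 replicate 1 (adjusted p = 0.0686), nor that with AA without AA replicate 1 (0.0619), and by DESeq2 neither passed (0.152 and 0.181). The peak chr1:153267777-153268361 had 3.52 and 2.75 CPM with vehicle, 3.31 and 2.53 after AA, and 5.49 and 4.63 after PGE2. It passed with PGE2 (log2 0.69, SE 0.20, edgeR adjusted p = 0.00957) and not with AA, and the PGE2 call did not hold without vehicle replicate 2 (0.154), without PGE2 replicate 1 (0.101) or by DESeq2 (0.212).

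**Figure D3:**
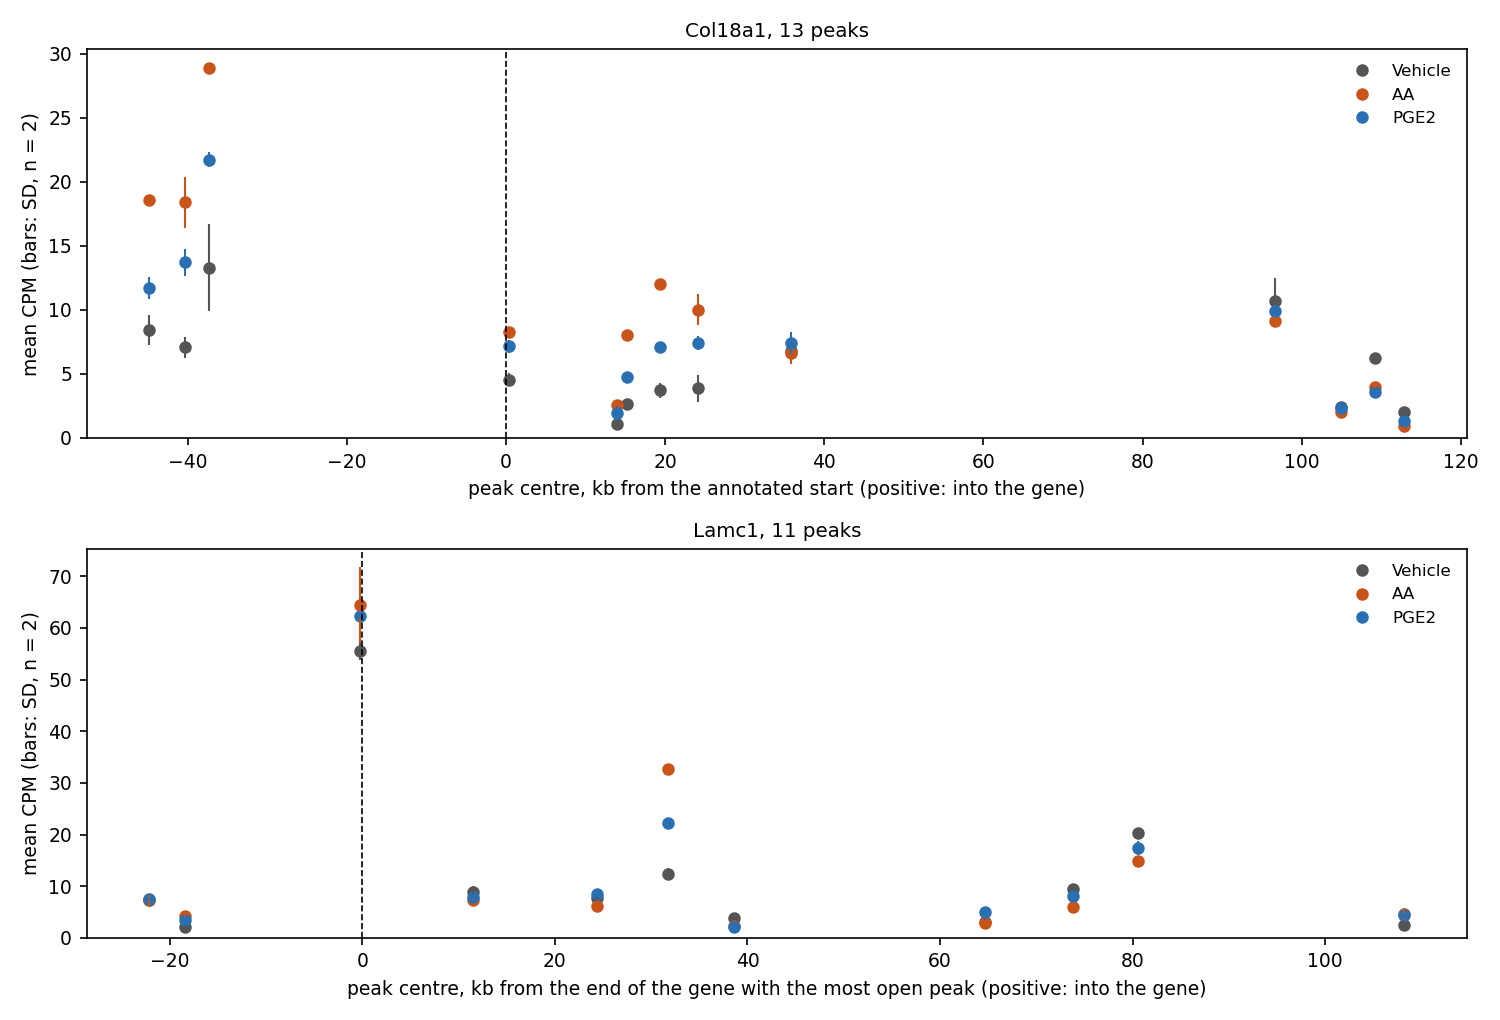
Mean CPM (bars: SD, n = 2) of the 13 Col18a1 peaks (upper panel, against kb from the annotated start) and the 11 Lamc1 peaks (lower panel, against kb from the gene end with the most open peak). At Col18a1 the order vehicle, PGE2, AA recurs upstream and in the run inside the gene and is absent near its far end, and at Lamc1 a single internal peak rises from 12.4 to 32.7 with AA while the most open peak moves from 55.5 to 64.4.

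Counts were also summed over all peaks of each gene and fitted over 16766 genes. Summed signal rose with AA at Col18a1, Col4a1, Lama5 and Lamc1, 4 of the 8 genes, where 16.5% of all genes were higher with AA. PGE2 raised it at Col18a1, Col4a1, Col4a2 and Lama5, where 19.9% of all genes were higher, and lowered it at Lamb3, where 18.7% of all were lower. Col18a1 went from 81.2 and 92.9 CPM with vehicle to 151 and 154 with AA and 117 and 110 with PGE2. Its change was 0.81 with AA (SE 0.05, edgeR adjusted p = 5.23e-09) and 0.39 with PGE2 (SE 0.06, edgeR adjusted p = 3.76e-05). With only the peaks within 10 kb of its ends, these became -0.04 and -0.19 and passed no test, since that limit leaves out the upstream group and the internal run.

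For the collagen IV pair the sums were low. Both include peaks that passed the filter only through the treated libraries, among them the shared promoter peak counted to Col4a2. Part of each sum was therefore bound to be low with vehicle, and the p-values below carry that limit. Col4a1 had 13.1 and 13.5 CPM with vehicle, 22.2 and 20.7 after AA, and 20.5 and 20.6 after PGE2, a rise of 0.69 (SE 0.11, edgeR adjusted p = 5.89e-05) and 0.63 (SE 0.11, edgeR adjusted p = 1.56e-04). Col4a2 had 8.59 and 10.2 CPM, 12.5 and 10.9, then 15.0 and 13.3, in the same order, and passed with PGE2 (0.59, SE 0.14, edgeR adjusted p = 0.00229), though not without vehicle replicate 1 (0.053). With AA its log2 change was 0.32 and did not pass (edgeR adjusted p = 0.0903). It did pass (0.82, edgeR adjusted p = 4.19e-05) once the peak deep inside the gene was added. It also passed with only the peaks within 10 kb (0.83, edgeR adjusted p = 0.0134), a sum that holds the shared promoter peak. With that 10 kb limit Col4a1 passed with neither agent (log2 0.72 with AA, adjusted p = 0.325, and 0.26 with PGE2, adjusted p = 0.737).

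Among the laminins Lama5 rose with both agents, by 0.39 with AA and 0.43 with PGE2 (SE 0.05 each, edgeR adjusted p = 9.29e-06 and 4.15e-06). Lamc1 rose slightly with AA (0.17, SE 0.04, edgeR adjusted p = 0.00152) and was at 0.09 with PGE2 (adjusted p = 0.0551), which 5 alternatives put just past the threshold (0.0331 to 0.0498). Lamb3 stood at 143 and 140 CPM with vehicle and 142 and 143 with AA, and fell to 120 and 116 with PGE2 (log2 -0.27, SE 0.04, edgeR adjusted p = 5.45e-05). Gene sums were not scaled separately for gene-end peaks, of which Lamb3 has 0. The most open Lamb3 peak did not pass with PGE2 (log2 -0.07). Lamb1 and Lama3 passed with neither agent. The 95% interval of the AA change ran from -0.22 to 0.00 for Lamb1 and from -0.31 to 0.16 for Lama3, so small changes in these sums cannot be told from none.

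Per kb of peak, vehicle signal was highest at Lamb3 (28.2 summed CPM per kb) and Lamb1 (23.0). Lamc1 (13.4), Lama5 (10.8), Lama3 (9.57) and Col18a1 (9.37) followed, and Col4a1 (4.40) and Col4a2 (3.96) were lowest. Between neighbours in this order the vehicle libraries overlapped for Lama3 and Col18a1 and for no other pair.

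**Figure D4:**
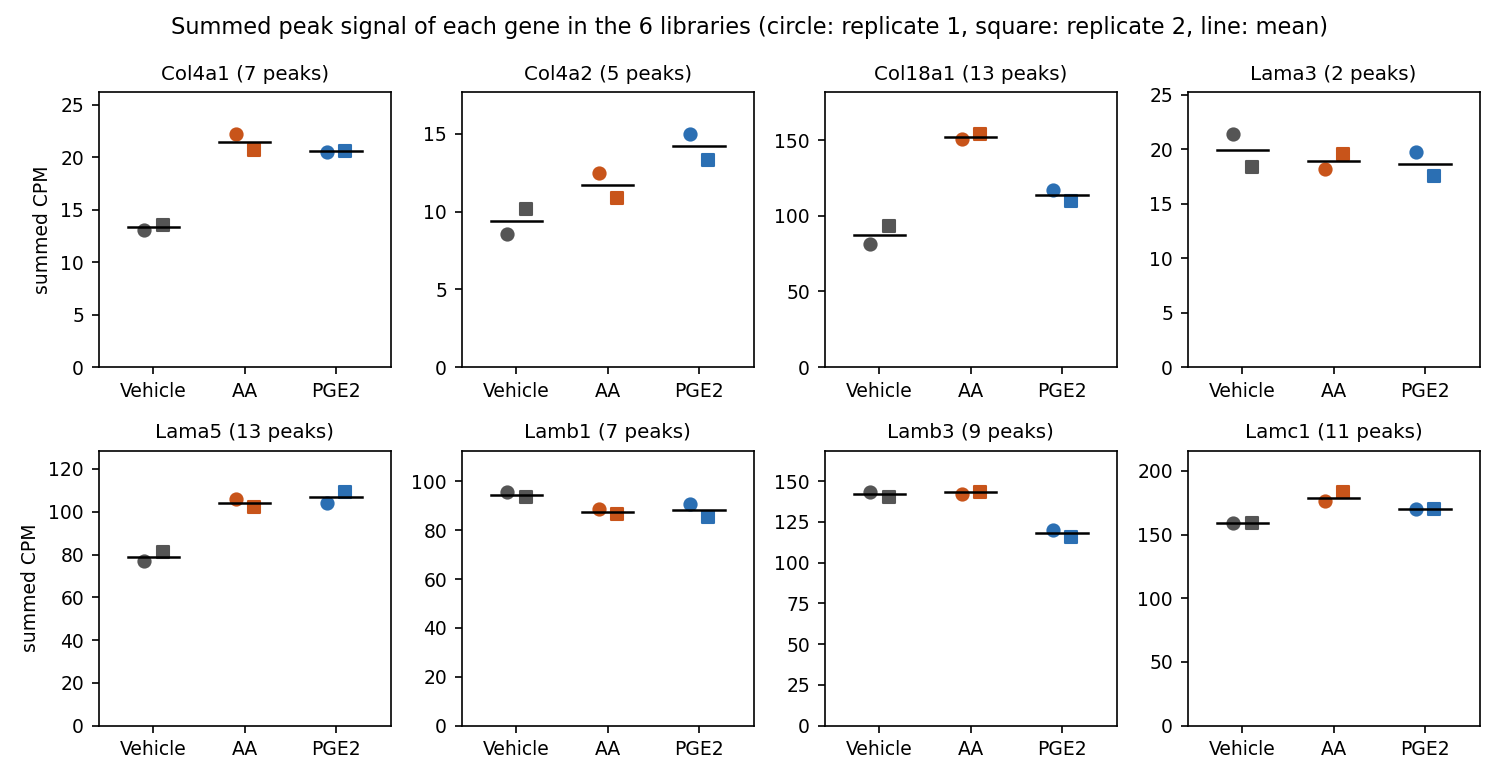
Summed CPM over all peaks of each gene in each of the 6 libraries, with circles for replicate 1, squares for replicate 2 and a line at the group mean, every axis starting at 0. Col18a1 has means of 87.0, 152 and 114 in vehicle, AA and PGE2, Lamb3 is lowest with PGE2 at 118, and Lama3 and Lamb1 stay close to their vehicle level.

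AA and PGE2 were then compared directly. Of the 67 peaks, 8 were higher with AA and 5 lower than with PGE2, 11.9% and 7.5%, beside 5.06% and 4.88% of all tested peaks (9.95% in either direction). Scaled separately, 8 were higher and 6 lower, beside 4918 and 3794 of all 89347 tested peaks. DESeq2 called 3 higher and 0 lower, beside 229 and 353 of all 90823 peaks, and gave no adjusted p for 39 of the 67. The 8 were 5 peaks of Col18a1 and 1 each of Lama5, Lamb3 and Lamc1, all of them away from the gene ends by the 1 kb limit. The largest was the internal Col18a1 peak at chr10:77146893-77147521 (log2 0.77, SE 0.13, edgeR adjusted p = 1.39e-04), which did not pass by DESeq2 (0.054). Its neighbour at chr10:77150912-77151876 was close to it (0.76, SE 0.16), followed by the Lamb3 peak next to its promoter (0.74, SE 0.12, edgeR adjusted p = 6.9e-05). The upstream Col18a1 peak at chr10:77211008-77211716 (0.67, SE 0.11) and the internal Lamc1 peak (0.55, SE 0.09, edgeR adjusted p = 4.4e-05) came next. The other Col18a1 peaks described upstream were chr10:77206607-77207213 (0.42, SE 0.11) and chr10:77203316-77204369 (0.41, SE 0.1). The former did not pass without AA replicate 2 (log2 0.31), without PGE2 replicate 1 (log2 0.34) or by DESeq2 (adjusted p = 0.237).

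The 5 peaks higher with PGE2 than with AA included both promoter peaks described above, at the Col4 pair and at Lama5. Gene-end peaks were lower with AA than with PGE2 in 16.7% of all cases and higher in 1.52%, so the direction at these promoters is the common one for such peaks. The other 3 were the Lamb1 peak at chr12:31280930-31281469 (log2 -0.96, SE 0.20), not passing without PGE2 replicate 2 (0.0658), and Lamc1 peaks at chr1:153267777-153268361 (-0.78, SE 0.21), not passing without AA replicate 2 (0.149) or PGE2 replicate 1 (0.0864), and chr1:153307614-153309263 (-0.47, SE 0.15). In gene sums AA exceeded PGE2 at Col18a1 (0.42, SE 0.05, edgeR adjusted p = 4.49e-05) and Lamb3 (0.28, SE 0.04, edgeR adjusted p = 1.93e-04), where 9.84% of all genes did. The 95% interval of the difference was -0.14 to 0.27 for Col4a1 and -0.14 to 0.07 for Lama5.

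**Figure D5:**
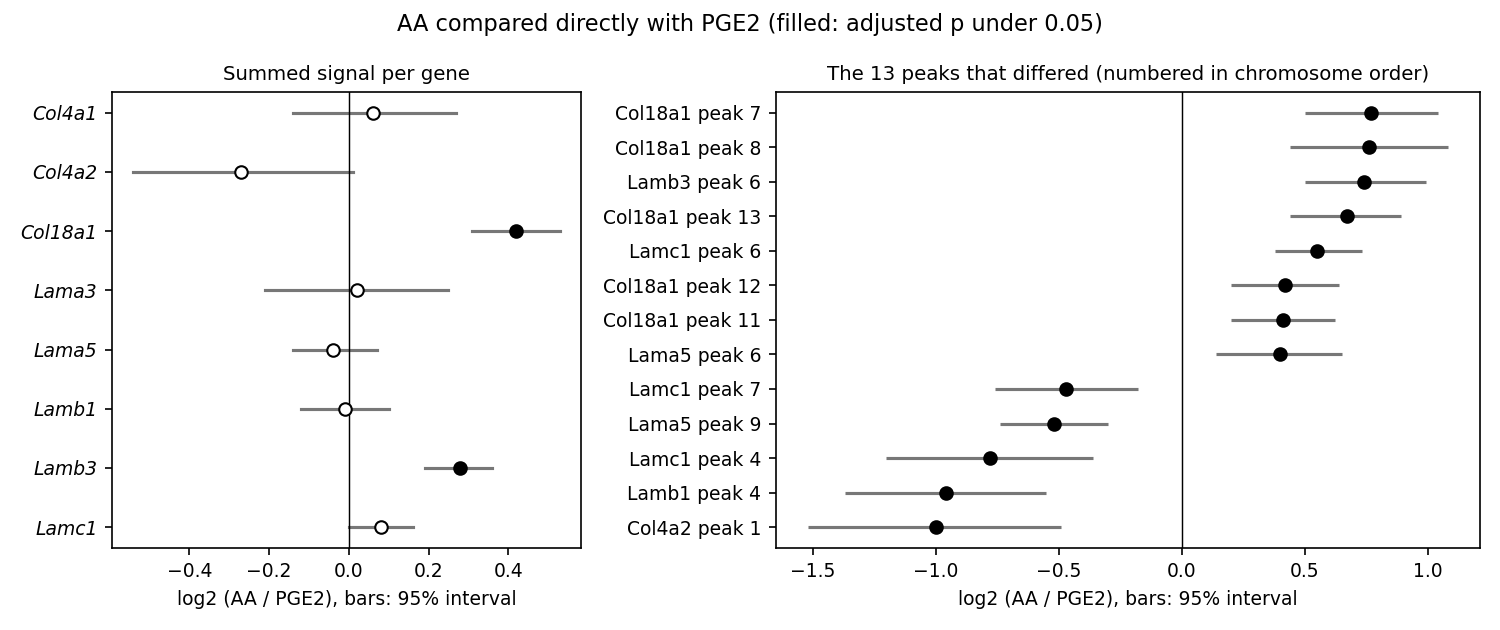
Log2 ratio of AA to PGE2 with 95% intervals, for the summed signal of each gene (left) and for the 13 peaks whose difference passed the test (right, numbered in chromosome order within each gene), filled where the adjusted p is under 0.05. Col18a1 at 0.42 and Lamb3 at 0.28 are the filled genes, and the Col4a2 promoter peak at -1.0 is the lowest of the peaks.

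The 50 kb limit left out 13 peaks that lie inside 5 of the genes but far from their ends. Of these, 7 were higher and 1 lower with AA, beside 16.7% and 13.8% of all tested peaks. With PGE2, 5 were higher, beside 14.3% of all. The member peak nearest to the limit, 49147 bp from an end of Lamc1, had 3.13, 2.92 and 5.06 CPM with vehicle, AA and PGE2, and the nearest one beyond it, 50800 bp from an end of the same gene, had 1.45, 3.06 and 2.57. Inside Col4a1, chr8:11259752-11260360 rose from 1.30 to 4.64 CPM with AA and 3.72 with PGE2 (log2 1.83 and 1.51, SE 0.25 and 0.26). Adding all 13 peaks to the gene sums made 6 of the 8 genes higher with AA and 5 with PGE2. In the main fit 16.5% and 19.9% of all genes were higher. Lama3 was then among those higher with AA (log2 0.21, edgeR adjusted p = 0.0257).

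Other genes of the same matrix were read from lists of their own. Of 22 peaks at other basement membrane collagens, 3 were higher (13.6%) and 1 lower (4.55%) with AA. With PGE2, 1 was higher (4.55%) and 2 were lower (9.09%). Over all tested peaks the shares were 16.7% and 13.8% with AA and 14.3% and 10.6% with PGE2. At Col15a1, the closest relative of Col18a1, chr4:47310389-47311258 rose by 0.72 with AA and by 0.34 with PGE2.

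Linkers and matricellular proteins stood the other way. With AA, 9 of 81 peaks were higher (11.1%) and 20 lower (24.7%), beside 16.7% and 13.8% of all tested peaks. With PGE2, 7 were higher (8.64%) and 15 lower (18.5%), beside 14.3% and 10.6% of all. Median changes were -0.27 and -0.10. The falls were at Ntn4, a netrin that disrupts laminin polymers (7 peaks with AA and 3 with PGE2), at Hspg2, which encodes perlecan (5 and 6), and at Fras1 (4 and 3), among others. Agrn, which encodes agrin, a proteoglycan that ties laminin to dystroglycan, had 3 peaks higher with AA and 2 with PGE2. Its peak chr4:156193872-156194220 had 3.75 and 3.59 CPM with vehicle, 10.6 and 10 after AA, and 6.41 and 7.72 after PGE2.

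Receptors for laminin and collagen had 14 of 95 peaks higher (14.7%) and 11 lower (11.6%) with AA. They had 12 higher (12.6%) and 11 lower (11.6%) with PGE2. These are near the shares of all tested peaks, 16.7% and 13.8% with AA and 14.3% and 10.6% with PGE2. Ddr1, a collagen receptor kinase, had a peak 39482 bp from a gene end that rose by 1.25 with AA (SE 0.10). Sdc4, a syndecan, had one that fell by 0.73 with AA and by 0.45 with PGE2. Enzymes of collagen folding and crosslinking had 5 of 39 higher (12.8%) and 4 lower (10.3%) with AA, and 7 (17.9%) and 4 (10.3%) with PGE2, also near the shares of all peaks. The gene-end peak of P4ha1, a collagen prolyl hydroxylase, rose by 0.81 with PGE2 (SE 0.09). Matrix proteases and inhibitors had 16 of 52 higher (30.8%) and 4 lower (7.69%) with AA, beside 16.7% and 13.8% of all tested peaks. With PGE2 they had 12 higher (23.1%) and 4 lower (7.69%), beside 14.3% and 10.6%. A peak of the protease gene Ctsl rose by 1.75 with AA and 1.38 with PGE2.

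Of 26 stromal marker peaks tested, 2 were higher (7.69%) and 3 lower (11.5%) with AA, and 1 was higher and 1 lower with PGE2 (3.85% each). Over all tested peaks the shares were 16.7% and 13.8% with AA and 14.3% and 10.6% with PGE2. Endothelial markers had 5 higher (9.8%) and 8 lower (15.7%) of 51 with AA and 4 and 4 (7.84% each) with PGE2. Their summed CPM lay between 450 and 472 in every library. Immune markers had 3 higher and 3 lower of 17 (17.6% each) with AA and 2 higher (11.8%) with PGE2, with summed CPM between 131 and 145.

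The mean log2 profile of the 8 gene sums over the 6 libraries was used to find genes of like pattern among 16758. The 3 nearest were Gsap (Pearson r = 0.9988 over 6 libraries), Olfr1342 (0.9983, a single peak) and Ifnlr1 (0.9982). Gsap had 60.7 and 63.4 summed CPM with vehicle, 105 and 103 after AA, and 95.4 and 85.4 after PGE2. The members did not all follow their own mean: r with it was 0.97 for Col4a1, 0.95 for Col18a1, 0.92 for Lama5 and Lamc1 and 0.74 for Col4a2, but -0.24 for Lamb3, -0.35 for Lama3 and -0.79 for Lamb1. With 6 libraries in 3 groups these correlations describe the pattern only.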

How the data were processed

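The deposited values are raw counts per consensus peak in 6 ATAC-seq libraries (2 per group), 1 table for all. Per the file headers, the authors counted read pairs with featureCounts 1.6.3, reduced to 5′ ends, unstranded, a pair being counted in each peak it overlapped. Per the submitters' processing notes, Trim Galore, BWA, Picard, SAMtools and MACS2 were used with build mm10. Settings of these tools: not given in the sources used here. Peaks called in common for all libraries cannot show regions closed in every one.

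Peak centres were matched to gene ends in a RefSeq table of GRCm38.p6, which named 72333 peaks (79.6%). Coordinates are those of the count table. Counts were tested with edgeR 4.0.16 (quasi-likelihood, TMM factors 0.969 to 1.02, filterByExpr, 1 fit over 6 libraries, 3 residual degrees of freedom, median prior 42.3, Benjamini-Hochberg, threshold 0.05). A second fit used counts summed per gene, and its CPM are relative to counts in assigned peaks only. SE are those implied by the F statistic. R was 4.3.3. Scripts were tested on simulated data. DESeq2 1.42.0, other scalings, filters, peak limits and left-out libraries were alternatives.

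All 8 members are named, each with its strongest gene-end peak where it had one and, per comparison and direction, the called peak of smallest p. Lamb1 and Lamb3 had no gene-end peak by the 1 kb limit. Of each other list, peaks of smallest p were eligible. The result of 1 further list is not reported here. Further peaks of the members were chosen after their values were seen. The members and lists were chosen with earlier results of these data known. Paired libraries differed more than counting noise allows (chi-square per degree of freedom 1.10, 1.12 and 1.56), and each was counted.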

Additional observations from a re-analysis of the deposited data

How the results depend on the processing

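Scaling by RLE factors or library totals, no filter, only the groups compared, and a replicate block each kept all counts of called members within 1.5 times. The replicate numbers only name libraries: deviations of same-numbered libraries correlated at 0.005, -0.02 and 0.036, and the replicate block gave 24 higher and 8 lower with AA, 22 and 5 with PGE2, and 8 and 5 for AA against PGE2. DESeq2 called 14 higher and 1 lower with AA, 10 and 2 with PGE2, and 3 and 0 for AA against PGE2, with no adjusted p for 1, 13 and 39 of the peaks. Peaks with a mean of at least 50 counts gave 12 higher with PGE2 and 3 lower with AA than PGE2, beside 9834 and 3846 of all 50622 such peaks. Leaving out each library gave 20 to 24 higher and 5 to 8 lower with AA, 16 to 22 and 3 to 5 with PGE2, and 5 to 9 and 2 to 5 for AA against PGE2. Of the peaks within 10 kb of a gene end, 10 were higher and 4 lower with AA, 7 and 3 with PGE2, and 2 and 2 for AA against PGE2, with gene sums higher at 2 genes with PGE2 and at 1 for AA against PGE2. Gene-end peaks alone gave 4 and 0, 3 and 0, and 0 and 2, with gene sums higher at 2 genes with AA, lower at 0 with PGE2, and higher at 0 and lower at 2 for AA against PGE2; both limits keep fewer peaks. Chosen after seeing the data, separate scaling of gene-end and other peaks gave 23 and 8, 25 and 5, and 8 and 6.

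Alternatives for single peaks were tabulated for 19 named peaks. Of results on these and on gene sums that were called, 656 alternatives kept the call, 50 lost it (15 with DESeq2) and 2 reversed, both at Col18a1 within 10 kb (-0.04 with AA and -0.19 with PGE2). The other 26 reversals were of changes that had not passed. For the Lama3 gene-end peak these were 0.01 with AA by DESeq2, -0.02 with PGE2 by library totals, and -0.15 with PGE2 and 0.08 for AA against PGE2 when scaled separately. The Lamb3 gene sum with AA was -0.01 by library totals, and that of Lama3 was 0.21 with all peaks inside the gene added. The rest came from leaving out libraries. The Lama3 gene sum then ran from -0.18 to 0.04 with AA, -0.2 to 0.02 with PGE2 and -0.07 to 0.1 for AA against PGE2, and its gene-end peak from -0.13 to 0.13, -0.09 to 0.15 and -0.16 to 0.11. The gene sum of Lamb3 with AA ran from -0.01 to 0.03 and that of Lamb1 for AA against PGE2 from -0.05 to 0.02. The Col4a1 gene-end peak with PGE2 ran from -0.15 to 1.15 and the Lamc1 peak at 49147 bp with AA from -0.3 to 0.11. For AA against PGE2, the internal Lamb3 peak that fell ran from -0.07 to 0.2, the Lamc1 peak that fell with both from -0.13 to 0.2, and the most open Lamc1 peak from -0.08 to 0.17. The cause of these moves was not tested.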
